A study of Rattus norvegicus with 174 samples.

Results

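The livers of 14 adult male Sprague-Dawley rats that breathed air were followed over the hours after a sham exposure, 14 of the 174 arrays of a study of inhaled phosphine, a toxic fumigant gas. The arrays were taken by their titles as liver of air rats at 1 h, 3 h, 6 h and 24 h, with 4, 4, 2 and 4 rats. Sprague-Dawley is an outbred stock, so that rats of a group also differ in genotype. The rats of all 4 groups sat in a whole-body chamber for 32.2 min at 0 ppm phosphine, were housed alone on a 12 h cycle of light and dark with food and water at will, and were anaesthetised with ketamine and xylazine before exsanguination. Each time is a different set of rats, and brain, heart, kidney and lung of the same rats were also on arrays. No phosphine-exposed liver enters a comparison here. The labels give the hours since exposure but no hour of the day, and each time has its own run of rat numbers. The time since the sham exposure, the time of day and the set of rats can therefore not be told apart. Values are log2 signals per gene on single-colour arrays, so a difference of 1 is a 2-fold difference, and adjusted p is that of limma's moderated test with Benjamini-Hochberg adjustment over 13438 genes. A gene was called at an adjusted p under 0.05.

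The liver is one of the organs in which the circadian clock has been studied most. In its core loop the transcription factors Bmal1 (Arntl) and Clock or Npas2 switch on the Per and Cry genes, whose proteins then inhibit them. In a second loop the nuclear receptors Nr1d1 and Nr1d2 (Rev-erb alpha and beta) repress Bmal1, and Ror receptors activate it. Clock output runs through transcription factors such as Dbp, and food intake, temperature and glucocorticoids also set the rhythm of the liver.

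The arrays fitted their label. The mean log2 signal of 10 hepatocyte markers lay between 12.86 and 12.93 on every array. Marker lists of lung, muscle, intestine, pancreas and kidney had means between 2.91 and 4.76, and the median of all probe sets was 4.16 to 4.22. No detection call was used here, so no fold is given for genes whose lower group averaged within or below that range of marker means, and their log2 differences may understate the change. The 10 stellate cell and fibroblast markers averaged 6.22 and 6.25 at 6 h, below the 6.34 to 6.82 of the 12 livers of the other times, and their part in the results at 6 h was not tested. In bulk tissue, fewer cells of a type and less RNA per cell cannot be told apart. The 24 h liver of Rat745 stood apart by its 75th percentile, 6.42 against 6.57 to 6.79 on the other 13 arrays. As a measure of RNA breakdown, the 3' signal of control transcripts stood 0.38 to 0.65 above their 5' signal over all livers. This gap averaged 0.524 ± 0.0949 at 24 h and 0.429 ± 0.0331 at 3 h (SD, n = 4 each, two-sided exact permutation p = 0.114, where 4 against 4 rats allow no p under 0.0286). Benjamini-Hochberg adjustment over the comparisons of 1 h, 3 h and 24 h took this permutation p to 0.214. Against 1 h (0.486 ± 0.0494) the adjusted permutation p was 0.214 for 3 h and 0.629 for 24 h. The 6 h livers stood at 0.391 (Rat762) and 0.556 (Rat763) and were not tested.

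Few genes were called between times, which does not show that the others stayed unchanged. The clock genes Bmal1 and Nr1d2 had the smallest adjusted p over the 4 times. Over the 4 times, 22 of 13438 genes differed by limma's moderated F (0.164% of the genes tested). Between single times, limma called 0 genes for 3 h minus 1 h (0%), 2 for 24 h minus 1 h (0.0149%), 1 for 24 h minus 3 h (0.00744%) and 44 for 24 h minus 6 h (0.327%). At an unadjusted p under 0.05 the F test held 1216 genes (9.05%), and the same 4 comparisons held 782 (5.82%), 1031 (7.67%), 963 (7.17%) and 1405 (10.5%). The comparisons of 6 h with 1 h and with 3 h, added after the data had been seen, called 9 genes (0.067%, 942 or 7.01% unadjusted) and 3 genes (0.0223%, 1154 or 8.59% unadjusted). Those 9 and those 3 were all among the 44. These comparisons share the same 2 livers of 6 h, so the overlap is no separate evidence.

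Of the 44 genes, 27 were higher and 17 lower at 24 h than at 6 h (0.201% and 0.127% of the genes tested). Their differences ran from 0.555 to 4.67 in size, and 29 were at least 2-fold (0.216%). In 43 of the 44 the 6 h mean was the lowest or the highest of the 4 times, with Baiap2l1 the exception. The 44 were called by their difference from 6 h, which favours such an extreme. Over all genes the 6 h mean was the lowest in 4162 and the highest in 4173 of 13438. Of the 22 genes of the F test, 19 were among the 44, which is 86.4% of the first list and 43.2% of the second. The 6 h group held only 2 rats, and without Rat763 only Bmal1 was called between 24 h and 6 h. Without Rat762, Rat744, Rat732 and Rat751 the count was 21, 27, 28 and 28.

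Of 26 core clock genes listed, 21 were measured. Between 24 h and 6 h, 2 of the 21 rose (Bmal1, Npas2) and 5 fell (Nr1d1, Nr1d2, Per3, Bhlhe41, Dbp). Over all genes 0.201% were called higher and 0.127% lower. The 24 h and 6 h values did not overlap in 13 of the 21, with 5 higher and 8 lower at 24 h, against 18.3% of all genes (8.81% higher and 9.52% lower). The median difference of the 21 was -0.0438, beside -0.00238 over all genes. For 6 h minus 1 h 2 were called higher and 2 lower, where 0.067% of all genes were called in either direction. Without overlap 10 were higher and 5 lower, against 8.33% and 9.95% of all genes (18.3% in all). For 24 h minus 1 h none was called, and Cry1 and Cry2 were higher and Nr1d1 and Nr1d2 lower without overlap, against 3.85% of all genes (1.6% higher, 2.25% lower).

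The sequences from 250 bases before to 50 bases after the start were read for the clock genes from RefSeq (GRCr8) and searched on both strands for 4 kinds of clock element. An E-box (CACGTG), the site of Bmal1 with Clock, lay in 6.42% of 33469 promoters, and its variant CACGTT in 4.83%. A D-box (TTATGTAA or TTACGTAA), the site of Dbp and its relatives, lay in 1.01%, and a Rev-erb and Ror element (TAGGTCA or TGGGTCA) in 6.6%. Any of these was present in 17.7% of all promoters. Of the 21 core clock genes 18 had an entry, and 8 of them held a match. Of the 22 genes of the F test 19 had an entry, and 5 held a match. Here a gene counts if any of its starts held a match, while the shares above count each promoter by itself. The 4 promoters below are shown because each carries an element of one arm of the loop whose values follow. Capitals mark the matches, which describe these letters and no binding.
Bmal1: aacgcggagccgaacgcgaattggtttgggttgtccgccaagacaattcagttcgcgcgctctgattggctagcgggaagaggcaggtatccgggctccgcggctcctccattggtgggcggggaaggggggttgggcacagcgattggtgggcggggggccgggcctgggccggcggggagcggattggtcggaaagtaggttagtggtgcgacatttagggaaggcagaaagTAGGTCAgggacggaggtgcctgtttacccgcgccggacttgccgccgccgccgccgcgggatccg
Nr1d1: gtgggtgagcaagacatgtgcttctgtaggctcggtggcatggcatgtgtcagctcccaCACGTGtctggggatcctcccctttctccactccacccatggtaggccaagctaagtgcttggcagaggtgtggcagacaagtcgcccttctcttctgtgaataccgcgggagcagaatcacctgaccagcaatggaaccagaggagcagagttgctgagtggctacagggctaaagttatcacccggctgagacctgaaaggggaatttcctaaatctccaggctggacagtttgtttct
Bhlhe41: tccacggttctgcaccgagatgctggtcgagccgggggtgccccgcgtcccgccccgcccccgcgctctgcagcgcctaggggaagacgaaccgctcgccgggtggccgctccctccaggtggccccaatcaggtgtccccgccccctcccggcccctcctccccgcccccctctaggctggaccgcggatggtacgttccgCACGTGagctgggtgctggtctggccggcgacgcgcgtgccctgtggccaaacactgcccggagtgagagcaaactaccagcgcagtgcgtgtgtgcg
Per2: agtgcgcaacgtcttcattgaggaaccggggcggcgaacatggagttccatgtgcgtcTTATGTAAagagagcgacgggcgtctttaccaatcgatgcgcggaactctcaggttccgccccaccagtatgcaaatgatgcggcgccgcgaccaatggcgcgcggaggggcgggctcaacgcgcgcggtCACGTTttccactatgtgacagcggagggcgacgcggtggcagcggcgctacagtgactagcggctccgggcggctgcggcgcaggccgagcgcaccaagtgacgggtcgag
The Bmal1 promoter (chr1:176766078-176766377, plus strand) holds TAGGTCA 16 bases before the start. That of Nr1d1 (chr10:84229405-84229704, minus strand) holds an E-box 191 bases before the start, and a further Nr1d1 start holds CACGTT on the opposite strand. In Bhlhe41 (chr4:180569306-180569605, minus strand) the E-box lies 48 bases before the start. Per2 (chr9:99496944-99497243, minus strand) has the D-box TTATGTAA 192 bases and CACGTT 62 bases before the start.

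Bmal1, the activator that the loop cannot do without, was the most firmly called gene. It had log2 signals of 6.94, 6.76, 6.99 and 6.92 at 1 h, 7.03, 6.52, 6.97 and 6.16 at 3 h, 4.22 and 3.90 at 6 h, and 7.10, 7.01, 7.36 and 6.89 at 24 h. Both 6 h livers lay far below the other 12, which overlapped. At 24 h Bmal1 was 3.03 ± 0.22 higher than at 6 h (SE, limma adjusted p = 3.35e-05), with the 6 h values near the median of all probe sets. At 6 h it was lower than at 1 h by 2.85 on the log2 scale (adjusted p = 7.27e-05). Between 24 h and 1 h it differed by 0.18 ± 0.18 (adjusted p = 0.813), means of 7.09 ± 0.20 and 6.91 ± 0.10 (SD, n = 4 each). The call between 24 h and 6 h held in all 24 other settings, including without each rat, with a highest adjusted p of 0.00348.

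Npas2, which can stand in for Clock as the partner of Bmal1, was also low at 6 h. It read 7.75, 7.89, 7.88 and 7.66 at 1 h, 7.88, 7.51, 7.88 and 7.08 at 3 h, 6.16 and 5.85 at 6 h, and 7.74, 7.01, 7.83 and 7.94 at 24 h. It rose by 1.63 ± 0.26 between 6 h and 24 h (3.09-fold, limma adjusted p = 0.0165), a call lost without Rat762 (adjusted p = 0.0964) or Rat763 (0.245). Clock itself read 3.07, 3.55, 2.92 and 3.34 at 24 h and 3.06 and 3.06 at 6 h, a difference of 0.16 ± 0.26 (adjusted p = 0.872). These values of Clock lay under the median of all probe sets, in the range of the marker lists of absent organs. A change of Clock could therefore go unseen. Rora, a Ror receptor, was 0.38 ± 0.25 higher at 24 h than at 6 h and was not called (adjusted p = 0.637).

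The Rev-erb receptors went the opposite way to Bmal1. Nr1d1 read 6.19, 6.35, 5.20 and 5.16 at 1 h, 6.21, 6.42, 5.76 and 7.10 at 3 h, 7.33 and 7.41 at 6 h, and 3.56, 4.33, 3.48 and 4.66 at 24 h. All 24 h livers lay below every other liver, and both 6 h livers above. At 24 h Nr1d1 was lower than at 6 h by 3.36 ± 0.43 on the log2 scale (limma adjusted p = 0.00484), with 24 h values in the range of the marker lists of absent organs. The differences of 24 h minus 3 h (-2.37 ± 0.35, adjusted p = 0.084) and of 24 h minus 1 h (-1.72 ± 0.35, adjusted p = 0.179) did not pass the threshold.

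Nr1d2 gave the only call between 24 h and 3 h. It read 8.09, 8.26, 7.72 and 7.81 at 1 h, 8.27, 8.57, 8.19 and 8.69 at 3 h, 8.97 and 9.47 at 6 h, and 6.78, 7.48, 6.81 and 6.95 at 24 h. Here too the 24 h livers lay lowest and the 6 h livers highest. Nr1d2 fell by 1.43 on the log2 scale between 3 h and 24 h (SE 0.19, 2.69-fold, limma adjusted p = 0.0423). Between 6 h and 24 h it fell by 2.22 (SE 0.23, 4.66-fold, adjusted p = 0.00111). The call against 3 h was lost without each of the 14 rats except Rat745, with adjusted p up to 0.265. Without Rat763 the adjusted p against 6 h was 0.0716 for Nr1d2 and 0.131 for Nr1d1.

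The Per and Cry genes, the inhibitors of the loop, were less uniform. Per3 read 3.13, 3.70, 2.57 and 2.82 at 1 h, 3.22, 2.83, 3.14 and 3.87 at 3 h, 4.26 and 5.70 at 6 h, and 2.77, 2.69, 2.95 and 2.53 at 24 h. It was the one called member, lower at 24 h than at 6 h by 2.24 ± 0.38 on the log2 scale (limma adjusted p = 0.0247). The adjusted p was 0.355 without Rat763, 0.0601 without Rat744 and 0.0656 without Rat751, and the mean of its probe sets fell by only 1.18. Per3 was dim, with all values at 1, 3 and 24 h under the median of all probe sets, and it was dropped by the filter on dim genes. Its other probe set, with a mean of 2.98, differed by -0.122. Per2 read 7.65 and 7.21 at 6 h and 4.99, 6.70, 5.20 and 5.10 at 1 h, which do not overlap, and was not called (1.93 ± 0.51, adjusted p = 0.338). At 24 h Per2 read 6.87, 5.23, 7.20 and 6.89, so that 3 of 4 rats stood above all 1 h livers and Rat745 did not.

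Per1, which also responds to glucocorticoids, was spread widely within each time and differed by 0.22 ± 0.52 between 24 h and 6 h (adjusted p = 0.915). Cry1 read 6.60, 6.73, 7.17 and 6.96 at 1 h, 6.85, 6.55, 6.98 and 6.17 at 3 h, 6.07 and 6.49 at 6 h, and 7.38, 7.27, 8.23 and 7.39 at 24 h. All its 24 h values lay above those of the other times, by 1.29 ± 0.28 against 6 h (limma adjusted p = 0.0848) and 0.70 ± 0.23 against 1 h (adjusted p = 0.529). Cry2 read 6.43, 6.57, 5.90 and 6.03 at 1 h, 6.22, 6.07, 6.79 and 6.47 at 3 h, 7.56 and 7.23 at 6 h, and 7.17, 7.08, 7.07 and 7.19 at 24 h. Its late values stood above the early ones without a call, by 0.90 ± 0.17 for 24 h minus 1 h (adjusted p = 0.177) and 1.16 ± 0.21 for 6 h minus 1 h (adjusted p = 0.0747).

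**Figure D1:**
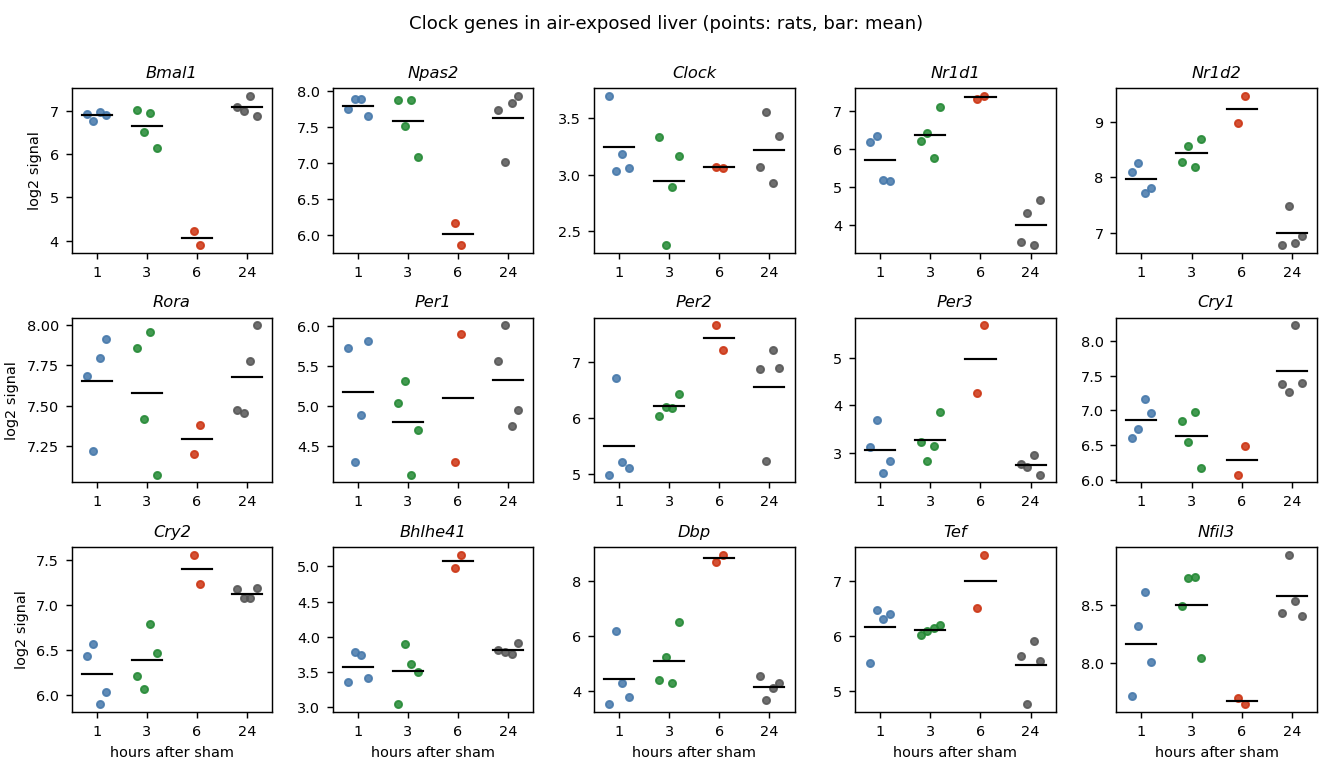
Log2 signal (vertical axes) of 15 core clock genes in each of the 14 air livers, by hours after the sham exposure (horizontal axes); each point is 1 rat and each bar the mean of its time. The 2 livers at 6 h stand lowest for Bmal1 and Npas2 and highest for Nr1d1, Nr1d2, Bhlhe41 and Dbp.

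Bhlhe40 and Bhlhe41 (Dec1 and Dec2) bind E-boxes and repress them. Bhlhe41 read 3.37, 3.79, 3.75 and 3.42 at 1 h, 3.05, 3.89, 3.62 and 3.51 at 3 h, 4.98 and 5.17 at 6 h, and 3.82, 3.78, 3.76 and 3.91 at 24 h. It was raised in both 6 h livers alone, while the other 12 lay under the median of all probe sets, and the filter on dim genes dropped it. At 24 h it was lower than at 6 h by 1.26 ± 0.19 on the log2 scale (limma adjusted p = 0.0139). It was 1.49 ± 0.19 higher at 6 h than at 1 h (adjusted p = 0.0106). The adjusted p for 24 h minus 6 h was 0.0964 without Rat762, 0.22 without Rat763 and 0.191 with all 30 liver arrays in the fit, and the call against 1 h was also lost without either 6 h rat. Bhlhe40 differed by -0.04 ± 0.63 between the same times (adjusted p = 0.983).

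Dbp, Tef and Hlf activate genes through the D-box, and Nfil3 represses them there. Dbp read 3.54, 6.20, 4.30 and 3.80 at 1 h, 4.40, 5.24, 4.32 and 6.52 at 3 h, 8.71 and 8.96 at 6 h, and 4.54, 3.68, 4.12 and 4.31 at 24 h. Both 6 h livers lay above all others, among which Rat721 at 1 h and Rat739 at 3 h were the highest. Dbp fell by 4.67 on the log2 scale between 6 h and 24 h, the largest measured difference of the 44 (SE 0.67, limma adjusted p = 0.0103), and its 24 h values lay around the median of all probe sets. It was 4.37 ± 0.67 higher at 6 h than at 1 h (adjusted p = 0.0309). Without Rat762 or Rat763 the adjusted p for 24 h minus 6 h was 0.0962 or 0.216. Against 1 h the call was lost without Rat720, Rat726, Rat727, Rat733, Rat751, Rat762 and Rat763, with adjusted p up to 0.396.

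The relatives of Dbp moved less. Tef was lower at 24 h than at 6 h by 1.54 ± 0.33 on the log2 scale without a call (limma adjusted p = 0.0848), and Hlf differed by -0.27 ± 0.22 (adjusted p = 0.718). Nfil3 read 8.43, 8.93, 8.53 and 8.40 at 24 h and 7.70 and 7.65 at 6 h, a difference of 0.90 ± 0.25 that was not called (adjusted p = 0.194). The kinases Csnk1d, Csnk1e and Gsk3b and the ubiquitin ligase Btrc, which tune the stability of clock proteins, lay between -0.16 and 0.20 for 24 h minus 6 h, and none was called.

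Of 15 listed genes that follow the clock in liver, 12 were measured. For 24 h minus 6 h 1 was called, against 0.327% of all genes. Without overlap 3 were higher and 3 lower, against 8.81% and 9.52% of all genes, and the median was 0.0717. The called gene was Avpr1a, the vasopressin receptor of hepatocytes. It read 10.27, 10.19, 10.24 and 10.64 at 1 h, 10.23, 10.22, 10.22 and 10.14 at 3 h, 9.24 and 9.50 at 6 h, and 10.31, 10.03, 10.36 and 9.96 at 24 h. It was low in the 6 h livers alone and rose by 0.80 ± 0.15 between 6 h and 24 h (limma adjusted p = 0.0483), a call that was lost without each rat except Rat727 and Rat745 (highest adjusted p 0.394). Inmt, a methyltransferase of indole amines, read 8.53 and 10.44 at 6 h and 7.19, 6.14, 6.94 and 7.57 at 3 h, 2.53 ± 0.46 apart (adjusted p = 0.0788). Usp2, a deubiquitinase, was 2.40 ± 0.52 higher at 6 h than at 3 h (adjusted p = 0.171). Higher at 24 h than at 6 h without overlap and without a call were Tfrc, the transferrin receptor, by 0.72, and Wee1, a kinase that holds back cell division, by 0.42. Nampt, which makes a precursor of NAD, the cytochrome P450 reductase Por and Inmt were lower at 24 h than at 6 h without overlap and without a call.

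The other 37 of the 44 genes lay outside the core clock list, and their functions were mixed. Hsd17b2, which oxidises oestradiol and testosterone, read 9.90, 10.30, 9.32 and 8.98 at 1 h, 9.67, 10.66, 10.00 and 10.94 at 3 h, 12.05 and 12.07 at 6 h, and 8.99, 9.14, 8.82 and 9.12 at 24 h. Its 6 h livers stood above all others. It was lower at 24 h than at 6 h by 3.04 ± 0.36 on the log2 scale (8.24-fold, limma adjusted p = 0.0023). Chka, choline kinase of the phosphatidylcholine pathway, read 8.79, 8.18, 8.73 and 8.62 at 1 h, 8.32, 8.46, 8.24 and 7.91 at 3 h, 6.999 and 6.776 at 6 h, and 8.80, 8.32, 8.62 and 8.44 at 24 h. It was low at 6 h against each other time, by 1.66 ± 0.20 for 24 h minus 6 h (3.15-fold, adjusted p = 0.0023), by -1.69 ± 0.20 for 6 h minus 1 h (adjusted p = 0.00513) and by -1.34 ± 0.20 for 6 h minus 3 h (adjusted p = 0.0457). Without Rat763 the adjusted p for 24 h minus 6 h was 0.115 for both genes, and that of Chka for 6 h minus 1 h 0.219. The call of Chka for 6 h minus 3 h was lost without each rat except Rat721, Rat739 and Rat745.

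Nupr1, a small nuclear protein induced by cell stress, was low at 6 h. It read 8.93, 8.66, 7.85 and 8.71 at 1 h, 7.57, 8.26, 8.24 and 8.02 at 3 h, 6.33 and 6.35 at 6 h, and 8.27, 8.02, 8.23 and 7.87 at 24 h. The rise between 6 h and 24 h was 1.76 ± 0.26 (3.38-fold, limma adjusted p = 0.0117), lost without Rat762 (adjusted p = 0.117) or Rat763 (0.216). Tubb2a, a beta tubulin, read 10.69, 10.36, 11.14 and 10.98 at 24 h and 9.31 and 8.49 at 6 h, a rise of 1.90 ± 0.25 (adjusted p = 0.00538). Rprm, an inhibitor of the cell cycle known from the p53 pathway, read 7.42, 6.36, 7.85 and 7.51 at 24 h and 4.72 and 4.59 at 6 h, a rise of 2.64 ± 0.39 (adjusted p = 0.0117). The livers of 1 h and 3 h also lay above those of 6 h for all 3 genes.

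Ppard, a nuclear receptor for fatty acids, read 6.15, 6.31, 6.50 and 6.59 at 24 h and 4.42 and 4.43 at 6 h, a rise of 1.96 ± 0.30 (limma adjusted p = 0.0139). Tmem252, a membrane protein, read 6.13, 5.63, 6.45 and 6.19 at 24 h and 4.39 and 4.08 at 6 h, a rise of 1.86 ± 0.22 (adjusted p = 0.0023). Poteml2 and Dmbt1, a scavenger receptor-like protein of epithelia, rose by 2.27 ± 0.39 and 1.85 ± 0.34 (adjusted p = 0.0247 and 0.0404). Lost without Rat763 were the calls of these 4 genes, of Tubb2a and of Rprm, with adjusted p between 0.115 and 0.246. Ppard, Poteml2, Dmbt1 and Rprm also lost theirs without Rat762, and Poteml2 without Rat744 or Rat751. Dmbt1 kept its call without only 4 of the 14 rats.

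Genes that fell between 6 h and 24 h included Pla2g12a and a long noncoding RNA. Pla2g12a, a secreted phospholipase A2, read 7.20, 7.34, 7.11 and 6.96 at 1 h, 6.88, 6.18, 6.84 and 6.39 at 3 h, 7.60 and 7.77 at 6 h, and 5.96, 6.52, 5.95 and 5.89 at 24 h. The noncoding RNA LOC100909928 read 4.82, 5.04, 4.95 and 5.22 at 1 h, 5.20, 4.82, 5.07 and 4.75 at 3 h, 5.83 and 6.32 at 6 h, and 4.482, 4.227, 4.504 and 4.064 at 24 h. In both, the 6 h livers were the highest and the 24 h means the lowest. Pla2g12a fell by 1.61 (SE 0.22, limma adjusted p = 0.00653) and LOC100909928 by 1.76 (SE 0.18, adjusted p = 0.00111). Without Rat763 the adjusted p was 0.204 for Pla2g12a and 0.0716 for LOC100909928. Gpr146, a G protein-coupled receptor, fell by 1.03 (SE 0.16, adjusted p = 0.0167), a call lost without Rat762 or Rat763.

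**Figure D2:**
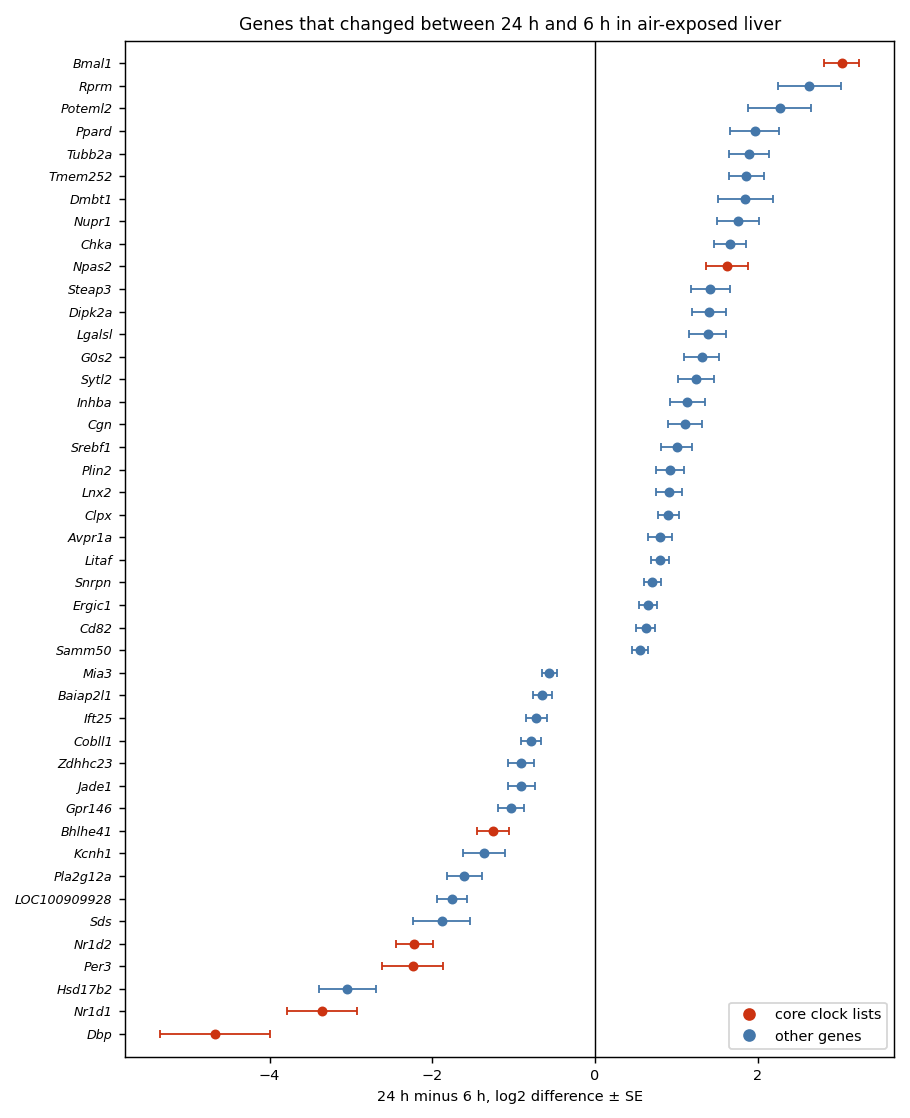
Log2 difference of 24 h minus 6 h (horizontal axis, ± SE of the fit) for the 44 called genes, 1 gene per row; core clock genes are red and the others blue. Dbp, Nr1d1 and Hsd17b2 lie farthest to the lower side, Bmal1 and Rprm farthest to the higher side.

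Among the remaining calls between 24 h and 6 h, the following were singled out after their values were seen. G0s2, an inhibitor of the triglyceride lipase Pnpla2, rose by 1.31 ± 0.21 (limma adjusted p = 0.0195), and Clpx, the unfoldase of a mitochondrial protease, by 0.90 ± 0.13 (adjusted p = 0.0103). Plin2, the coat of lipid droplets, rose by 0.93 ± 0.17 (adjusted p = 0.0427). Without Rat763 its difference was 0.604, and it kept its call without only 2 of the 14 rats. Litaf, a protein of endosomes, rose by 0.80 ± 0.11 (adjusted p = 0.00832), and Dipk2a by 1.40 ± 0.21 (adjusted p = 0.0116). Cobll1 fell by 0.79 (SE 0.12, adjusted p = 0.0124), and Mia3, which helps export collagen from the endoplasmic reticulum, by 0.56 (SE 0.10, adjusted p = 0.0247). Higher at 24 h were also Steap3, Lgalsl, Sytl2, Inhba, Cgn, Lnx2, Snrpn, Ergic1, Cd82 and Samm50, by 0.56 to 1.42, and lower Ift25, Zdhhc23, Jade1 and Kcnh1. Without Rat763 none of the calls in this paragraph remained. For 11 of the 44 genes other probe sets existed, and 1 of these 16, of Ift25, had the opposite sign. Smaller rises were seen for those of Plin2 (0.196 and 0.661), Dipk2a (0.449 and 0.222), Ppard (0.848) and Snrpn (0.0954 beside 0.705). Those of Dipk2a, Ppard and Snrpn were dim, with means of 3.17 to 4.22. For Per3, given above, the fall was also smaller. Those of Nr1d2, Srebf1, Jade1, Lgalsl and Mia3 and 1 of Ift25 moved about as far or farther.

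**Figure D3:**
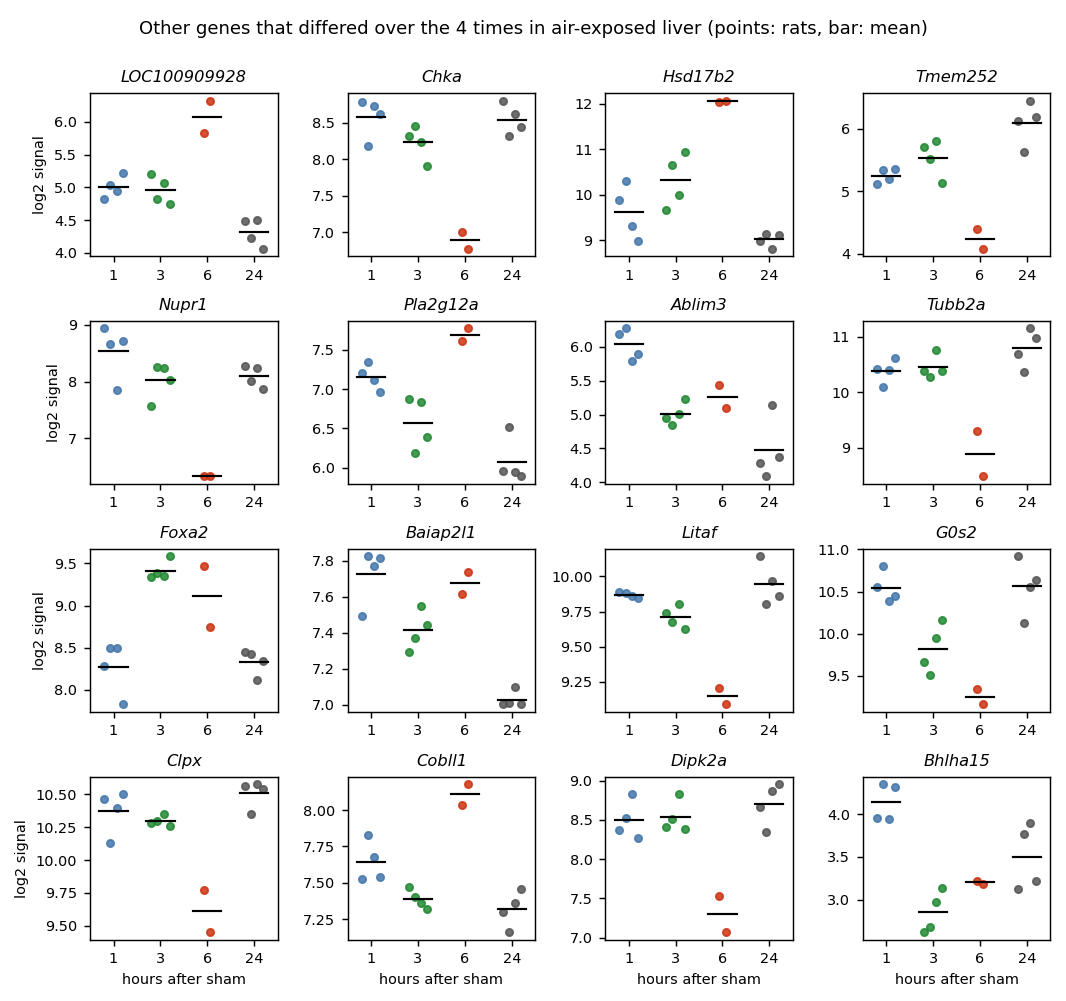
Log2 signal (vertical axes) in each of the 14 air livers, by hours after the sham exposure (horizontal axes), for 16 genes outside the core clock that differed over the 4 times; each point is 1 rat and each bar the mean of its time. Chka, Nupr1 and Tubb2a are lowest at 6 h, Hsd17b2 and LOC100909928 highest at 6 h, Foxa2 higher at 3 h than at 1 h and 24 h, and Ablim3 highest at 1 h.

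Between 24 h and 1 h limma called Ablim3 and Baiap2l1, both lower at 24 h. Ablim3, an actin-binding LIM protein, read 6.19, 6.27, 5.80 and 5.89 at 1 h, 4.95, 4.84, 5.01 and 5.23 at 3 h, 5.43 and 5.10 at 6 h, and 4.29, 4.09, 5.14 and 4.37 at 24 h. The 1 h livers lay above all others. It fell by 1.57 on the log2 scale (SE 0.20, limma adjusted p = 0.0315). Baiap2l1, which bends membranes and bundles actin, read 7.49, 7.83, 7.77 and 7.82 at 1 h, 7.29, 7.37, 7.55 and 7.44 at 3 h, 7.62 and 7.74 at 6 h, and 7.003, 7.012, 7.098 and 7.004 at 24 h. It fell by 0.70 (SE 0.10, 1.62-fold, adjusted p = 0.0394), and its 24 h livers lay below every other liver. The call was lost without each rat except Rat745 and Rat750 for Ablim3 (highest adjusted p 0.196) and except Rat720 and Rat745 for Baiap2l1 (0.246), while 6 genes were called without Rat745.

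Between 3 h and 1 h no gene passed the threshold in either direction, and the 3 h and 1 h livers did not overlap in 4.91% of genes, 223 higher (1.66%) and 437 lower (3.25%). Without Rat739 limma called 3 genes and without Rat750 it called 2. Of the genes of the F test, Foxa2 and Bhlha15 were in no pairwise list and are given here after their values were seen. Foxa2, a transcription factor that opens liver chromatin, read 8.28, 8.49, 8.49 and 7.83 at 1 h, 9.34, 9.38, 9.35 and 9.58 at 3 h, 9.47 and 8.74 at 6 h, and 8.45, 8.42, 8.12 and 8.34 at 24 h. Its 3 h livers were 1.14 ± 0.17 above those of 1 h (adjusted p = 0.104), and the difference of 24 h minus 3 h was -1.08 ± 0.17 (adjusted p = 0.0949), with an F test adjusted p of 0.0321. Bhlha15 (Mist1), a transcription factor of secretory cells, read 2.62, 2.68, 2.97 and 3.13 at 3 h and 3.95, 4.35, 3.94 and 4.31 at 1 h, a difference of -1.29 ± 0.18 (adjusted p = 0.104, F test 0.0482). In none of these 3 comparisons did the groups overlap. The F test call held without 5 of the 14 rats for Foxa2 and without 1 for Bhlha15. Bhlha15 was dim, with means from 2.85 at 3 h to 4.14 at 1 h. These lay within or below the range of the marker lists of absent organs, and the filter on dim genes dropped it.

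Lists of liver functions added few calls, with shifts in the medians of several lists between 24 h and 6 h. Of 20 genes of fatty acid synthesis, 1 was called higher at 24 h and 10 were higher without overlap, none lower, with a median of 0.806. Over all genes 0.201% were called higher, and 8.81% were higher and 9.52% lower without overlap. Srebf1, the transcription factor that drives these genes, read 9.28, 9.50, 9.14 and 9.35 at 1 h, 9.59, 9.21, 9.49 and 9.54 at 3 h, 9.42 and 8.95 at 6 h, and 10.36, 9.79, 10.46 and 10.15 at 24 h. Its 24 h livers stood above all others. It was the called gene (1.00 ± 0.19, limma adjusted p = 0.0483) and lost its call without each rat except Rat745 (highest adjusted p 0.554). Fasn, the fatty acid synthase, read 9.37, 8.96, 10.11 and 9.65 at 24 h and 8.09 and 8.67 at 6 h, 1.14 ± 0.29 apart (adjusted p = 0.145), and Pnpla3, a lipase under Srebf1, was 2.11 ± 0.67 higher (adjusted p = 0.272). For 24 h minus 1 h the median of the list was 0.341, with 2 genes higher without overlap (Srebf1 and Fasn) and none called.

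Of 19 targets of Atf4, the factor of amino acid shortage and cell stress, 1 (Nupr1) was called higher at 24 h than at 6 h. A further 7 were higher and 1 (Ddit3) lower without overlap, against 8.81% and 9.52% of all genes, and the median was 0.445, beside -0.00238 over all genes. Of all genes 0.201% were called higher. The amino acid genes Phgdh, Psat1 and Asns were 1.34 ± 0.39, 1.18 ± 0.33 and 0.93 ± 0.26 higher without a call. Of 22 genes of amino acid breakdown and the urea cycle, Sds, the serine dehydratase of gluconeogenesis, was called. It read 9.67, 9.88, 9.31 and 10.20 at 1 h, 10.35, 9.06, 9.07 and 9.10 at 3 h, 10.54 and 10.58 at 6 h, and 9.10, 8.86, 8.30 and 8.45 at 24 h. Sds was lower at 24 h than at 6 h by 1.88 ± 0.35 on the log2 scale (3.69-fold, limma adjusted p = 0.0421), lost without each rat except Rat726 and Rat732. Of the list 7 genes were lower and 1 higher without overlap, against 9.52% and 8.81% of all genes, with a median of -0.0884. Of all genes 0.127% were called lower. Among 19 glucocorticoid-responsive genes, Sds was again the only call, and 4 were higher and 4 lower without overlap (18.3% of all genes in either direction). The mean of the 19 genes overlapped, 7.644 to 8.584 at 24 h and 8.053 to 8.274 at 6 h. Mt2A, Klf9 and Fkbp5, picked from the members with lower means at 24 h, differed by -2.64, -1.06 and -0.65 without a call. The members that were higher are not named here.

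Interferon-responsive genes gave no call, but 8 of 19 were lower at 24 h than at 6 h without overlap and none higher, against 9.52% and 8.81% of all genes, with a median of -0.405. Cxcl10, a chemokine, read 4.43, 4.71, 5.05 and 5.18 at 24 h and 6.17 and 6.01 at 6 h, and differed by -1.25 ± 0.35 between 24 h and 6 h (limma adjusted p = 0.197). For 6 h minus 1 h, 8 of the 19 were higher without overlap (8.33% of all genes) and none lower, with a median of 0.637. Of 16 bile acid genes, 7 were lower and 2 higher at 24 h than at 6 h without overlap and without a call, against 9.52% and 8.81% of all genes, with a median of -0.246. The bile acid receptor Nr1h4 was 0.76 ± 0.17 higher at 24 h (adjusted p = 0.113). Of 25 cell division genes none was called for 24 h minus 6 h. Among them Ccnd1, a cyclin of the G1 phase, read 6.98, 7.81, 7.26 and 7.49 at 1 h, 7.73, 7.28, 7.57 and 7.96 at 3 h, 9.15 and 8.64 at 6 h, and 7.47, 7.45, 8.11 and 7.50 at 24 h (24 h minus 6 h -1.26 ± 0.26, adjusted p = 0.0637).

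For the comparisons with 4 rats in each group, list members were seldom apart. Of 19 cholesterol synthesis genes, 5 were higher at 24 h than at 1 h without overlap (Pmvk, Fdps, Fdft1, Nsdhl, Dhcr7), none lower and none called, against 1.6% of all genes higher. The median was 0.311, beside -0.0133 over all genes. Dhcr7, the last enzyme of the pathway, read 10.47, 10.18, 10.37 and 10.45 at 24 h and 9.70, 9.73, 9.94 and 9.99 at 1 h (0.53 ± 0.12, limma adjusted p = 0.233). Of 22 amino acid and urea genes, 5 were lower at 24 h than at 1 h without overlap, against 2.25% of all genes, and none was called. Of 26 immediate early genes, which respond within minutes to stimuli, 4 were lower at 24 h than at 3 h without overlap (Jun, Junb, Ier3, Klf6), and none was called; in that comparison 3.9% of all genes did not overlap, 2.02% higher and 1.88% lower. Between 3 h and 1 h, Myc alone of these genes was higher without overlap, 8.42, 8.24, 7.71 and 7.36 at 3 h and 6.07, 7.14, 6.32 and 6.82 at 1 h (1.34 ± 0.36, adjusted p = 0.618). The mean of the 26 genes was nevertheless apart, 6.017 to 6.245 in the 3 h livers and 5.637 to 5.915 in those of 1 h. It was 5.882 to 5.927 at 6 h and 5.668 to 6.025 at 24 h, and this shift of the mean was not tested.

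**Figure D4:**
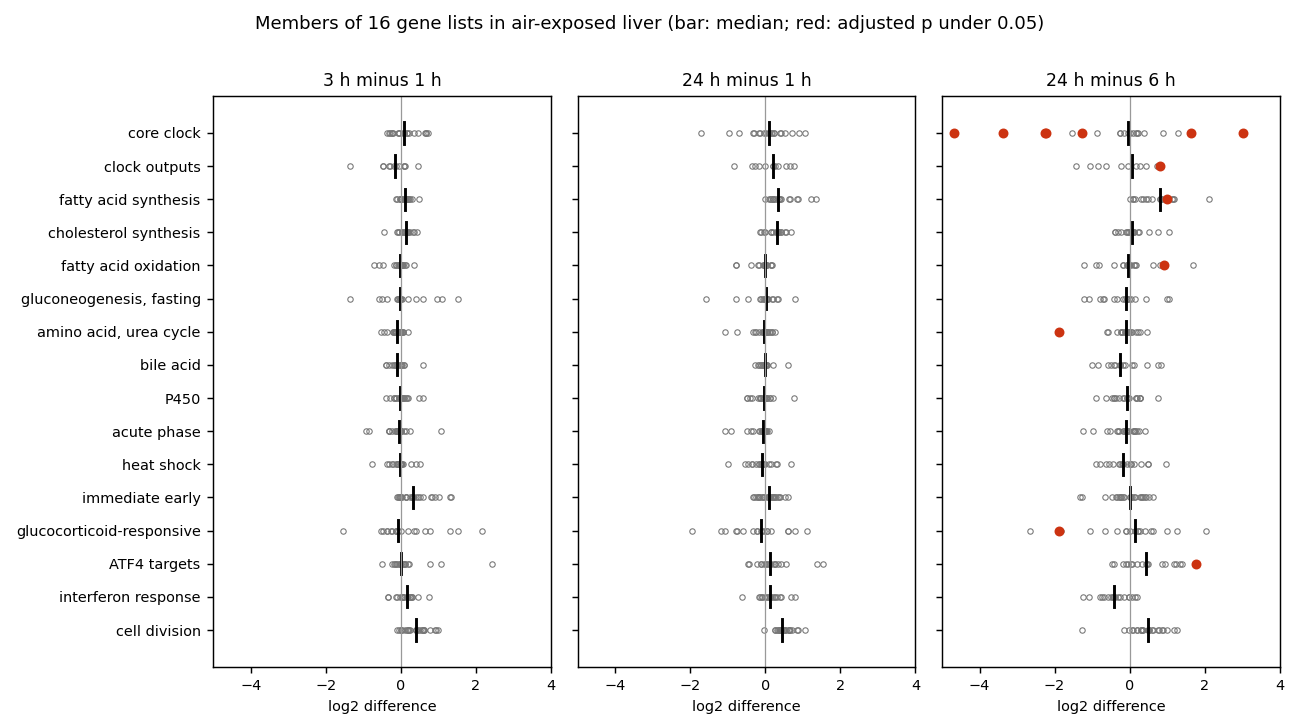
Log2 differences of the members (points) of 16 gene lists for 3 h minus 1 h, 24 h minus 1 h and 24 h minus 6 h; each bar is the median of a list and red points are called genes. The median of fatty acid synthesis stands at 0.806 for 24 h minus 6 h and that of interferon-responsive genes at -0.405.

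Kidney, brain, heart and lung of the same rats were set against liver, with the rat as a block, to ask which genes changed otherwise in liver. Against kidney 4 of 13438 genes differed in their change with time (0.0298%, limma's moderated F, 1286 or 9.57% at an unadjusted p under 0.05). They were Pla2g12a, Tmem252, LOC100909928 and Ablim3, each with an adjusted p of 0.0334. Against the mean of brain, heart and lung 1 gene differed (0.00744%, 1407 at an unadjusted p under 0.05), LOC100909928 (adjusted p = 0.011). The 4 calls against kidney were all lost without Rat726, Rat727, Rat732, Rat733, Rat738, Rat762, Rat763, Rat744 or Rat751, and 1 was left without Rat721 or Rat750. The kidney of Rat720 at 1 h held hepatocyte markers at a mean 5.45 above the kidney median, and without that rat the count against kidney was again 4. The same markers lay 3.12 and 3.31 above the heart median in both 6 h hearts, against -0.547 to 1.87 in the other 12, and 1.21 and 0.758 above the lung median in both 6 h lungs. They lay 3.71 above it in the 3 h lung of Rat733 and 2.70 above the kidney median in the 24 h kidney of Rat744. With heart left out, a setting added after the data were seen, 3 genes differed from the mean of brain and lung: Bmal1 (adjusted p = 0.00197), Hsd17b2 (0.0296) and LOC100909928 (0.0327). The part of hepatocyte RNA in the values of other organs was otherwise not tested. Against the other 3 organs the count was 0 without Rat763 or Rat751, 9 without Rat721, 3 without Rat732 or Rat750, and 2 without Rat739 or Rat745.

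Pla2g12a averaged 7.15, 6.57, 7.69 and 6.08 in liver at 1, 3, 6 and 24 h, and 7.85, 7.70, 7.82 and 7.75 in kidney. Ablim3 averaged 6.04, 5.01, 5.27 and 4.47 in liver and 7.55, 7.48, 7.64 and 7.51 in kidney at the same times. Both moved in liver and hardly in kidney. Tmem252 averaged 5.25, 5.54, 4.24 and 6.10 in liver and 9.10, 8.23, 9.04 and 8.78 in kidney, where 3 h and not 6 h was lowest. LOC100909928 averaged 5.01, 4.96, 6.08 and 4.32 in liver and 5.07, 5.43, 5.63 and 5.30 in kidney. In brain it stayed between 2.89 and 3.13, in heart between 3.85 and 4.16 and in lung between 6.67 and 7.36. Its highest mean was at 6 h in kidney, heart and lung. Hepatocyte markers lay above the organ median in the 6 h hearts and lungs. In the 6 h kidneys they lay below it (-1.18 and -0.969), and their part in these values was not tested.

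No core clock gene was called against kidney or against the mean of brain, heart and lung. With heart left out, Bmal1 was called against the mean of brain and lung, where brain weighs as much as lung. The mean difference of Bmal1 for 24 h minus 6 h was 3.03 in liver, 2.15 in kidney, 2.44 in heart, 2.26 in lung and 0.211 in brain. Bmal1 averaged 6.91, 6.67, 4.06 and 7.09 in liver at 1, 3, 6 and 24 h, 5.67, 5.42, 4.21 and 6.36 in kidney, 5.99, 5.69, 4.24 and 6.68 in heart and 6.09, 5.49, 4.01 and 6.28 in lung. It was lowest at 6 h in each of these organs, and in brain its 6 h mean of 5.66 lay 0.211 below that of 24 h. The adjusted p of Bmal1 was 0.155 against kidney and 0.0683 against brain, heart and lung, which does not show that the organs were alike. For Dbp the mean difference of 24 h minus 6 h was -4.67 in liver, -2.31 in kidney, -0.40 in brain, -2.63 in heart and -3.83 in lung. For Nr1d1 it was -3.36 in liver, -1.39 in kidney, -0.237 in brain and -0.861 in heart, and in lung its means were 4.405 at 24 h and 7.406 at 6 h.

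**Figure D5:**
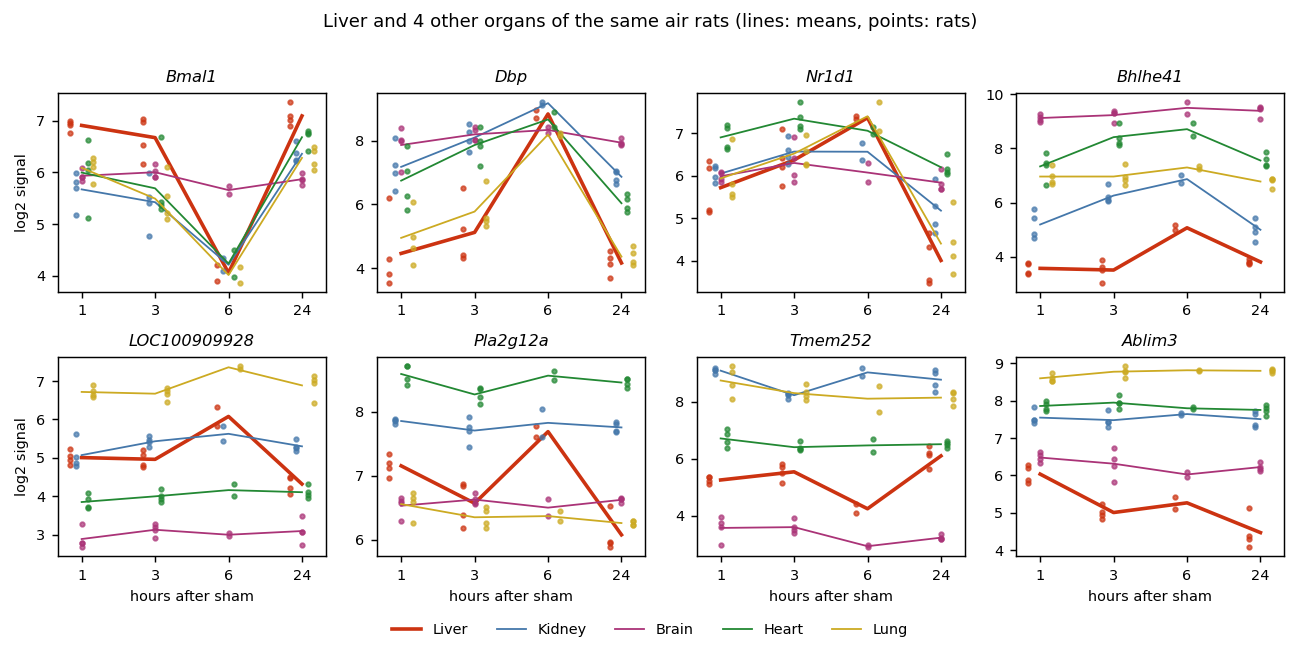
Log2 signal of 8 genes (vertical axes) by hours after the sham exposure (horizontal axes) in liver, kidney, brain, heart and lung of the 14 air rats; points are rats and lines join the means of each organ. Bmal1 and Dbp move at 6 h in all organs but brain, where they move little, while Pla2g12a and Ablim3 move in liver and hardly in kidney.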

How the data were processed

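RNA of livers flash frozen and ground, purified on RNeasy columns and labelled with the 3' IVT Plus kit, was measured on single-colour Affymetrix rat arrays, per the labels' protocols. The authors deposited 1 log2 signal per probe set and array, made by RMA with Partek per the submitters' processing notes. Versions, and whether tissues were normalized together, are not given in the sources used here. Of 31139 probe sets, 19063 list 1 gene, which gave 13438 genes. For genes with several probe sets, the one with the highest mean over the 14 livers was used, and no dim gene was left out. There is no read depth on an array, and precision rests on the number of rats.

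The 14 livers were fitted with limma 3.58.1 (R 4.3.3) with a mean per time and eBayes. Time contrasts, the moderated F over the 4 times, and the F of within-rat differences of liver minus kidney and of liver minus the mean of brain, heart and lung were adjusted over all genes. Organs pair by rat number, which marks the same animal. Same-rat deviations from the group means correlated at -0.13 to 0.227 between liver and kidney, -0.139 to 0.154 with brain, -0.0919 to 0.238 with heart and -0.0438 to 0.206 with lung. Figures were drawn with python 3.11.15 and matplotlib 3.10.9. The method was tested on simulated data.

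The members and the 48 gene lists were chosen with earlier results of these data known. The rule for named genes took, per contrast, the called genes that rose most and fell most (up to 8 each, with a mean above the median over all genes, 5.76, in the brighter group), up to 4 called members per list by smallest p, all measured clock genes and up to 5 genes per test against other organs. Uncalled list members, Foxa2, Bhlha15, G0s2, Clpx, Dipk2a, Cobll1, Mia3 and the genes given with them were picked after their values were seen. Promoters came from a RefSeq table of GRCr8. Alternatives were other arrays in the fit, normalization within liver, a filter on dim genes at the 40th percentile, other summaries of probe sets, other eBayes settings, array weights, an RNA integrity covariate, no replicate block, leaving out heart (added later) and leaving out each rat.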

Additional observations from a re-analysis of the deposited data

Results flagged for a closer look

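Dixon's test was run on 117 groups of 4 livers, from 37 genes and 2 array measures, and 9 groups had 1 liver apart from the others. Chance alone gives about 1 in 20 groups. At 1 h, Per2 stood at 6.699 in Rat721, against 4.988 to 5.204 in the other 3 rats. Tef at 1 h was 5.498 in Rat720, against 6.312 to 6.471. Baiap2l1 at 1 h was 7.494 in Rat720, against 7.774 to 7.826. At 3 h, Csnk1d was 8.595 in Rat732, against 8.352 to 8.375, and Btrc was 4.69 in Rat738, against 5.179 to 5.229. At 24 h, Cry1 was 8.232 in Rat750, against 7.267 to 7.391. Baiap2l1 at 24 h was 7.098 in Rat750, against 7.003 to 7.012. Pla2g12a at 24 h was 6.522 in Rat745, against 5.891 to 5.961. The array of Rat745 had a 75th percentile of 6.422, against 6.70 to 6.72 in the other 24 h livers.

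Some genes changed with time otherwise in liver than in other organs of the same rats, by limma's moderated F. LOC100909928 differed from the mean of brain, heart and lung (adjusted p = 0.011). Pla2g12a, Tmem252, LOC100909928 and Ablim3 differed from kidney (adjusted p = 0.0334 each).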

How the results depend on the processing

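Of 219 results for named genes, 37 were called in the main fit, and only these could lose a call. Over 5232 runs under other settings, 4823 kept their direction and side of the threshold, which includes uncalled results that stayed uncalled. A call was lost in 237 runs and gained in 52. In a further 120, uncalled throughout, the sign turned, and no called gene turned its sign. The 6 h group held only 2 rats, and the cause of each shift below was not tested. With all 30 liver arrays in the fit, limma called 1 gene for 24 h minus 1 h, 3 for 24 h minus 3 h, 25 for 6 h minus 1 h and 14 for 6 h minus 3 h. With only the 2 groups compared in the fit the counts were 0 for 24 h minus 1 h, 0 for 24 h minus 3 h, 12 for 24 h minus 6 h, 2 for 6 h minus 1 h and 0 for 6 h minus 3 h. Quantile normalization within air liver gave 1 for 3 h minus 1 h, 1 for 24 h minus 1 h, 0 for 24 h minus 3 h, 22 for 6 h minus 1 h and 11 for 6 h minus 3 h. Median centring gave 1, 0, 17 and 12 for 24 h minus 1 h, 24 h minus 3 h, 6 h minus 1 h and 6 h minus 3 h. Without dim genes, 3 were called for 24 h minus 3 h, 70 for 24 h minus 6 h, 18 for 6 h minus 1 h, 22 for 6 h minus 3 h and 21 for liver against brain, heart and lung. The mean of probe sets gave 0 for 24 h minus 1 h, 16 for 6 h minus 1 h and 10 for 6 h minus 3 h. With trend and robust eBayes the counts were 2 for 3 h minus 1 h, 13 for 24 h minus 1 h, 4 for 24 h minus 3 h, 104 for 24 h minus 6 h, 27 for 6 h minus 1 h, 16 for 6 h minus 3 h and 56 for the F test. Array weights gave 1 for 3 h minus 1 h, 5 for 24 h minus 3 h, 34 for 6 h minus 1 h, 32 for 6 h minus 3 h and 39 for the F test. With RNA integrity as covariate the counts were 0 for 24 h minus 1 h, 0 for 24 h minus 3 h, 29 for 24 h minus 6 h and 9 for the F test. No paired analysis of the times was possible because each time has its own rats. With heart left out, 3 genes were called against brain and lung. Against other organs, where the main fit has the rat as a replicate block, the fit with no replicate block called 9 genes against kidney, 3 of them shared with the blocked fit, and 309 against brain, heart and lung, 1 of them shared. The RNA integrity difference of 3 h minus 1 h was 0.00545 with Gapdh alone (-0.0569 with both transcripts), and that of 24 h minus 1 h was -0.00542 with Actb alone (0.0375 with both).

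Leaving out 1 rat at a time gave 0 to 3 calls for 3 h minus 1 h, 0 to 6 for 24 h minus 1 h, 0 to 1 for 24 h minus 3 h, 1 to 51 for 24 h minus 6 h, 1 to 21 for 6 h minus 1 h, 1 to 13 for 6 h minus 3 h and 3 to 26 for the F test. Against kidney it gave 0 to 4 and against brain, heart and lung 0 to 9. The F test called 3 genes without Rat763, 4 without Rat744, 8 without Rat751, 9 without Rat762 or Rat726, 10 without Rat720 or Rat733, 11 without Rat727 or Rat750, 13 without Rat732 and 14 without Rat738. The 9 calls of 6 h minus 1 h became 1 without Rat763, 4 without Rat720, Rat726 or Rat727, 21 without Rat721 and 17 without Rat745. The 3 calls of 6 h minus 3 h became 1 without Rat763, 5 without Rat721, 6 without Rat762, 8 without Rat739 and 13 without Rat745.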

Other observations

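Cdkn1a, an inhibitor of cyclin-dependent kinases that also responds to glucocorticoids, read 7.35, 6.13, 6.92 and 7.73 at 1 h, 5.82, 6.21, 5.15 and 4.81 at 3 h, 5.06 and 3.72 at 6 h, and 6.51, 6.92, 6.40 and 5.90 at 24 h. Its 6 h values lay below those of 1 h and of 24 h, and neither difference was called (6 h minus 1 h -2.64 ± 0.49, limma adjusted p = 0.0747; 24 h minus 6 h 2.04 ± 0.49, adjusted p = 0.125). Ppargc1a, a coactivator of gluconeogenesis and mitochondrial genes, read 3.00, 3.59, 3.74 and 3.37 at 24 h and 5.30, 4.05, 5.41 and 5.28 at 1 h, a difference of -1.58 ± 0.32 that was not called (adjusted p = 0.179). Gdf15, a hormone released by stressed cells, was 1.38 ± 0.31 higher at 24 h than at 1 h without overlap and without a call (adjusted p = 0.233).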
